A study of Mus musculus with 4 samples.

Results

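The genes described here are 10 forkhead transcription factors of vessels and stroma, Foxc1, Foxc2, Foxd1, Foxf1, Foxo1, Foxo3, Foxp1, Foxp2, Foxq1 and Foxs1. They were taken by symbol from a fixed list, and all 10 were found among the 21537 protein-coding genes of GENCODE release M21 (mouse build mm10, chromosomes 1 to 19 and X). ATAC-Seq, in which the Tn5 transposase cuts accessible DNA, was run on nuclei sorted from the hearts of male mice of the C57BL/6 background aged 8 to 12 weeks. Every mouse carried NuTRAP, a reporter that makes a GFP-tagged ribosomal protein after Cre recombination and by which nuclei can be sorted, together with Cdh5-Cre, which is active in endothelium and marks all later descendants of the recombined cells. GFP+ nuclei are therefore of endothelial descent, and GFP- nuclei are the mixture of all other heart nuclei that passed the same gate for DNA content. There were 2 libraries of each population, from 100 to 50000 nuclei per reaction, and the authors called a single peak list per population from both of its libraries. The number of hearts behind a library is not given in the sources used here.

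Forkhead proteins bind DNA through a winged-helix domain. The FOXO members, Foxo1 and Foxo3, are held out of the nucleus when insulin or growth factors activate PI3K and AKT, and in endothelium Foxo1 restrains growth and is needed to build the vasculature. Foxc1 and Foxc2 act in arterial and lymphatic development, Foxf1 in mesenchyme and lung endothelium, Foxq1 in brain endothelium, and Foxd1 and Foxs1 are known from stromal progenitors and pericytes. Foxp1 and Foxp2 are repressors with broad roles, of which Foxp1 is needed for heart development.

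The GFP- list held 78912 peaks and the GFP+ list 65008. A peak's strength is given here as its percentile rank, from 0 to 100, by peak area within its own list, area being the caller's significance signal summed over the peak. Ranks were used because areas are not scaled between the lists. With a single list per population, no difference below has a replicate check, and no test was possible. Read depth is not analysed here. In sorted bulk nuclei, fewer nuclei of a type and less accessible DNA per nucleus cannot be told apart.

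The labelled populations were checked at the transcription start sites (TSSs) of marker genes. All 9 endothelial markers carried a TSS peak in GFP+ nuclei and 6 of them did in GFP- nuclei, and 8 ranked higher in GFP+, among them Cdh5 at 85.3 against 18.0. The exception was Tek, at 54.1 against 81.1. Of 7 fibroblast markers, 2 had a TSS peak in GFP+ and 6 in GFP-, and of 7 pericyte and smooth muscle markers 3 had a TSS peak in GFP+ and 7 in GFP-. Tcf21, Dpt, Col1a2, Dcn, Pdgfrb, Rgs5, Notch3 and Acta2 had a TSS peak in GFP- and none in GFP+. The fibroblast markers Pdgfra (96.5 in GFP- and 87.0 in GFP+) and Col1a1 (95.6 and 80.7) had strong ones in both, and Lum had none. All 6 cardiomyocyte markers had a TSS peak in both lists, at ranks of 79.6 to 100.0 in GFP+ and 86.3 to 100.0 in GFP-. Of 4 macrophage markers only Cd68 had a TSS peak, in both lists, and 3 of 3 lymphatic markers had a TSS peak in both. Fibroblast and mural markers with a TSS peak thus ranked lower, and most endothelial markers higher, in GFP+, while cardiomyocyte markers ranked high in both lists. The part of these cell types in the forkhead results below was not tested.

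Sequences from regions and promoters with the main differences are printed first. Each is 200 bases of mm10 (sequence of GRCm38.p6) on the strand of its gene, 5′ to 3′, and none overlaps an annotated exon. For the intronic and flanking peaks the window is centred on the summit of the largest peak per gene and list that overlapped no peak of the other list and ranked above 25. For Foxf1 that peak lies on an exon of a non-coding RNA, so its strongest upstream peak is shown instead. For Foxs1 and Foxd1 the 200 bases before the TSS are also shown. Capitals mark a match to any of 6 words searched on both strands, which are TGTTTAC for forkhead proteins, GGAAGT for ETS, CCATTGT for SOX, GATAAG for GATA factors, CAGCTG for E-box proteins and TGANTCA for AP-1.

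The regions that were stronger in, or present only in, the GFP+ list were chr8:121027902-121028101 (Foxf1, 56.4 kb upstream), chr3:52404562-52404761 (Foxo1, 136 kb after the TSS and beyond the gene's end) and chr6:99012040-99012239 (Foxp1, in an intron).
Foxf1 upstream region: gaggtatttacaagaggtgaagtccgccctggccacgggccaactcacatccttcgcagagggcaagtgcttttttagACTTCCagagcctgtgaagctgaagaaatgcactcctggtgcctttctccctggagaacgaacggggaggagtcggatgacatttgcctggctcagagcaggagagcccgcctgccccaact
Foxo1 downstream region: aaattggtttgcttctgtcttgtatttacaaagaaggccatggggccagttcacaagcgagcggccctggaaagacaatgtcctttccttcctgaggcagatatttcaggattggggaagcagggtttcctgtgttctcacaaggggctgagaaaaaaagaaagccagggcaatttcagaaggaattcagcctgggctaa
Foxp1 intronic region of the GFP+ list: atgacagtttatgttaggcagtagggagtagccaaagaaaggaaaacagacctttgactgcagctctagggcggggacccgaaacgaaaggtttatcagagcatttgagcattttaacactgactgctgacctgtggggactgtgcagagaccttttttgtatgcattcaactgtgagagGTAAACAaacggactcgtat

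The regions that were present only in the GFP- list were chr10:42106673-42106872 (Foxo3, beyond the gene's end), chr6:15257371-15257570 (Foxp2, intron), chr6:99175530-99175729 (Foxp1, intron) and chr2:152931565-152931764 (Foxs1, beyond the gene's end).
Foxo3 downstream region: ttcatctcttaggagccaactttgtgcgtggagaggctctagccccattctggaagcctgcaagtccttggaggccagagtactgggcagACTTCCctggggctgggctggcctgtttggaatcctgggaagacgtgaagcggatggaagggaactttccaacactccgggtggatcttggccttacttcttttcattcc
Foxp2 intronic region: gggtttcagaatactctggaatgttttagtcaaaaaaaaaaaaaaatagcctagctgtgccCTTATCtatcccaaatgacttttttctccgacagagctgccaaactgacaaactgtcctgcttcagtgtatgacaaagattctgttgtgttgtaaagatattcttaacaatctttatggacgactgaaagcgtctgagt
Foxp1 intronic region of the GFP- list: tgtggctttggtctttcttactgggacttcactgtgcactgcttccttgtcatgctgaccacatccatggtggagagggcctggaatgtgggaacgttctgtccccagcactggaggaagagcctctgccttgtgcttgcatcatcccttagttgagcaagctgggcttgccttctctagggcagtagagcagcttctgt
Foxs1 downstream region: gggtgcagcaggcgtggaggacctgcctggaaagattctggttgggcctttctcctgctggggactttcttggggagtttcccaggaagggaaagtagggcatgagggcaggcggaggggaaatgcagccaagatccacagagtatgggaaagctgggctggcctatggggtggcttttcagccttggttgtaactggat

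Promoters printed for genes whose TSS peak ranked far lower in GFP+ by area were chr2:152933209-152933408 (Foxs1) and chr13:98354042-98354241 (Foxd1). Within the Foxd1 window the GFP- peak began only at 98354178, and its summit lay in the exon, at 98355489. The GFP+ peak began at 98354082, so the window does not mark where GFP- was stronger. Foxp2 also ranked far lower at its start (-35.7 points), and its promoter is not printed.
Foxs1 promoter: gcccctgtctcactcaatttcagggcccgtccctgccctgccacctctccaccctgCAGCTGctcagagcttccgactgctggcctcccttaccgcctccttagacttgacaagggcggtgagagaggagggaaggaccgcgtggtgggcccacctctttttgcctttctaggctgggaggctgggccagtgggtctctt
Foxd1 promoter: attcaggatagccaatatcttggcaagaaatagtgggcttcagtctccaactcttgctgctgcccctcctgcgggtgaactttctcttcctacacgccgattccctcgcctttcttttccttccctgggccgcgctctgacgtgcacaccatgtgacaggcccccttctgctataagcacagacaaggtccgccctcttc

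The Foxf1 region and the Foxo3 region each held an ETS word, the GFP+ Foxp1 region a forkhead word near its 3′ end, the Foxp2 region a GATA word and the Foxs1 promoter an E-box word, while the other 4 windows held none of the 6. A match is a description of the letters, not of a bound factor. Across the 15 intronic and flanking GFP+ peaks of the 10 genes that overlapped no GFP- peak, 2 held the SOX word (13.3%), against 6.07% of 6957 such peaks of all genes, and 2 held the ETS word (13.3% against 24.1%). The forkhead word was in 1 of these 15 (6.67% against 3.78%), in 1 of 28 GFP- peaks that overlapped no GFP+ peak (3.57% against 3.13% of 18888) and in 3 of 57 GFP+ peaks that overlapped a GFP- peak (5.26% against 2.81% of 36914). The ETS word was in 4 of the 28 GFP- peaks (14.3% against 16.6%) and in 11 of the 57 (19.3% against 15.3%). The E-box word was in 4 of the 28 (14.3% against 28.5%), in 1 of the 15 (6.67% against 15.8%) and in 12 of the 57 (21.05% against 20.5%). The SOX word was in none of the 28 (2.02% of all) and in 3 of the 57 (5.26% against 2.67%). The AP-1 word was in 2 of the 28 (7.14% against 15.0%) and in 2 of the 15 (13.3% against 8.80%), and the GATA word in 2 of the 28 (7.14% against 7.13%) and in 2 of the 15 (13.3% against 8.18%). No test was made on these small counts.

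The first question was whether the starts of the forkhead genes were accessible in endothelial nuclei. A TSS peak, one that overlaps an annotated transcript start ± 250 bp, was found for 9 of the 10 genes in the GFP- list (61.9% of all protein-coding genes) and for 8 of 10 in the GFP+ list (59.8% of all). Foxo1, Foxo3, Foxp1, Foxc1 and Foxf1 each differed by less than 2 points between the lists, whereas Foxs1, Foxd1 and Foxp2 ranked far lower in GFP+. Over the 9 genes with a TSS peak the median difference, GFP+ minus GFP-, was -0.55 points, beside -0.81 over 13518 genes. Of the 9, 3 were lower by more than 20 points (7.38% of all genes) and 0 were higher by more than 20 (1.92% of all).

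**Figure D1:**
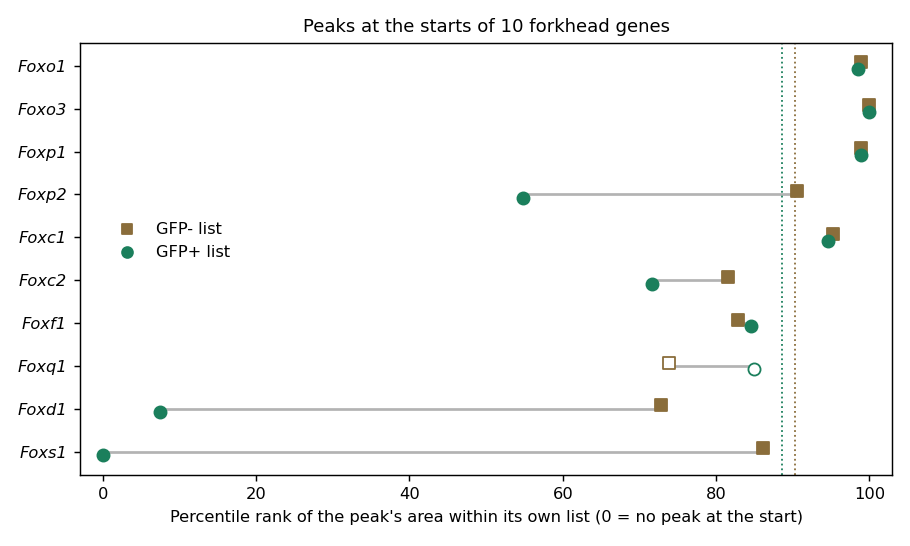
Percentile rank by area of the strongest TSS peak of each forkhead gene in the GFP- list (brown squares) and the GFP+ list (green circles), joined by a grey line, with dotted lines at the medians over all genes with a TSS peak (90.3 in GFP- and 88.6 in GFP+). Foxo1, Foxo3, Foxp1 and Foxc1 lie above both medians in both lists, Foxp2, Foxd1 and Foxs1 move left in GFP+, and open symbols give Foxq1 at its RefSeq start.

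Among the FOXO genes, the Foxo3 promoter carried one of the largest peaks of either list. The peak (chr10:42273681-42278804 in GFP-; peak coordinates below are those of the GFP- list unless GFP+ is named) had an area of 22160 over 5124 bp in GFP- and 18708 over 5098 bp in GFP+, and stood at position 47 by area in both lists, which is a rank of 99.9 in each. The Foxo1 peak (chr3:52267311-52270863) had an area of 10497 (rank 98.9) in GFP- and 8683 (rank 98.6) in GFP+. The starts of both FOXO genes were thus among the strongest peaks of either list, and their order of strength was the same in endothelial and other nuclei.

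The main promoter of Foxp1 (chr6:99520413-99523726) ranked 98.9 in GFP- and 98.8 in GFP+, with areas of 10429 and 9202. GENCODE lists 22 starts for this gene of 597384 bp in 14 groups, and 6 of the groups had a peak in both lists while 8 had one in neither. Neighbouring groups met the same peak at the main promoter and at chr6:99027838-99028881, so there were fewer separate peaks than groups. Of the internal start peaks, that at chr6:99265953-99266544 ranked 52.9 in GFP- and 61.0 in GFP+. The peak at chr6:99094587-99096768 ranked 93.2 and 87.8, and that at chr6:99027838-99028881 ranked 80.2 and 80.5. Every GENCODE start group of Foxp1 with a peak thus had it in both populations. With RefSeq starts, a group had only a GFP+ peak (rank 12.7) and another only the GFP- peak of rank 93.2, beyond whose start window the overlapping GFP+ peak ended.

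Foxp2, best known for its role in neurons, differed from its relative. Its main start carried a peak of 2086 bp (chr6:14899793-14901878) with an area of 4244 in GFP- (rank 90.5) and a peak of 702 bp with an area of 795 in GFP+ (rank 54.8). A separate GFP+ peak of rank 36.5 lay 543 bp before the start, within the span of the GFP- peak. An internal start at position 15184647 of chromosome 6 had a GFP- peak of rank 37.8 and no GFP+ peak within the window, although a GFP+ peak of rank 21.5 overlapped that GFP- peak.

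Foxc1 and Foxc2, which act together in arterial and lymphatic vessels, had TSS peaks in both lists. The Foxc1 peak (chr13:31805518-31808962) ranked 95.2 in GFP- (area 6211) and 94.6 in GFP+ (area 5415). The Foxc2 peak (chr8:121115953-121116873) ranked 81.6 (area 2420) and 71.6 (area 1432), a difference of -9.92 that was -16.3 when ranked by summit p-value and -35.0 by area per base. In both lists Foxc2 thus stood below the median over all genes with a TSS peak, each gene taken by its strongest one, and Foxc1 above it.

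Foxf1 was the only gene of the set whose strongest peak at a GENCODE start ranked higher in GFP+, at 84.5 (area 2731) against 82.9 (area 2610). The peak (chr8:121083032-121085020) spans the start of Fendrr, a long non-coding RNA read from the opposite strand 1.28 kb away, so the signal belongs to a shared promoter region. Ranked by the p-value of its summit instead of its area, Foxf1 was lower in GFP+, with a difference of -9.94, so its direction depends on the measure.

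Foxq1 had no TSS peak in either list at its GENCODE start, 31556134 on chromosome 13. Its RefSeq start lies at 31558170, and there the GFP- peak had an area of 1667 over 1168 bp (rank 73.9) and the GFP+ peak an area of 2806 over 2340 bp (rank 84.9). With RefSeq starts, 10 of the genes in GFP- and 9 in GFP+ had a TSS peak. The RefSeq starts were chosen after the data were seen, and a gene of the other strand, A530084C06Rik, overlaps Foxq1, so that the peak cannot be given to Foxq1 alone.

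The stromal factors Foxd1 and Foxs1 had the largest differences at the start by area, but by the other measures that of Foxd1 was smaller than that of Foxp2 (-52.1 by summit p-value and -36.2 by area per base). Foxs1 had a GFP- peak of 1446 bp (chr2:152932650-152934095), area 3153 and rank 86.1, over its TSS and promoter sequence printed above. No GFP+ peak overlapped the Foxs1 window, and the nearest GFP+ peak, of 216 bp and rank 30.8, began 503 bp before the TSS, inside the span of the GFP- peak. Of the 7 pericyte and smooth muscle markers, 4 had a TSS peak only in GFP-, and Cspg4 (85.6 in GFP- and 76.1 in GFP+), Kcnj8 (83.4 and 49.1) and Myh11 (73.7 and 60.3) had one in both lists.

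Foxd1 had a GFP- peak of 1814 bp (chr13:98354178-98355991, area 1595, rank 72.8) that covered the TSS and had its summit within the gene's only exon. In GFP+ the same stretch held separate peaks, 744 bp at the TSS (area 241, rank 7.46) and 729 bp in the exon (area 564, rank 42.0). The difference of -65.4 points therefore compares a long peak with the smaller piece of a split peak. It was -25.4 when ranked by the p-value of the summit and -11.1 by area per base, which does not reward length.

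The next question was whether the regions around the genes were shared between the populations. A peak was given to a gene when its summit lay in an intron, or within 100 kb of a gene that was the nearest protein-coding one, and the peak met no TSS window. The 10 genes had 80 such peaks in GFP- and 72 in GFP+. Of the GFP- peaks, 28 (35.0%, Wilson 95% interval 25.5 to 45.9%) overlapped no GFP+ peak, beside 34.5% over all genes. Of the GFP+ peaks, 15 (20.8%, interval 13.1 to 31.6%) overlapped no GFP- peak, beside 15.9% over all genes. The GFP- list is the longer one. With lists of equal length, 70.0% of 60 GFP- peaks and 66.7% of 72 GFP+ peaks overlapped a peak of the other list. Shortening the GFP- list can only lower the share of GFP+ peaks that overlap it. The shares over all genes above are those of the full lists, and none is given for lists of equal length. The Wilson intervals cover counting error only and treat peaks as independent, although Foxo3 held 27 and Foxp1 26 of the 80 GFP- peaks. They are therefore no test against the background. In the full lists, shares of the 10 genes together stood near those of all genes, and values of single genes are given below.

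**Figure D2:**
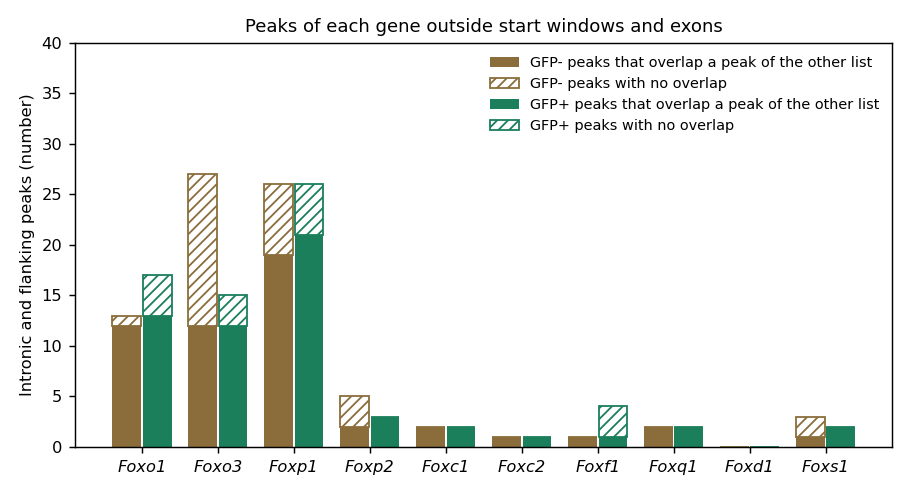
Number of intronic and flanking peaks of each gene in the GFP- list (brown) and the GFP+ list (green), with filled bars for peaks that overlap a peak of the other list and hatched bars for those that do not. Foxo3 has 27 GFP- and 15 GFP+ peaks, Foxp1 26 in each list, Foxf1 1 and 4, and Foxd1 none.

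Overlapping peaks of both lists were merged into 95 regions, and the highest rank of each list was compared, with 0 where a list had no peak. The median difference was -3.73 points (order-statistic 95% interval -11.8 to -0.777), beside -5.57 over 60845 regions of all genes. Without Foxo3, a setting chosen after seeing the data, it was -2.91 (interval -6.33 to 1.01). These intervals, and that of Foxp1 below, treat regions as independent and are no test. Foxo3 held 30 and Foxp1 31 of the 95 regions. Of the 95, 28 were lower in GFP+ by more than 20 points (29.5%, beside 26.2% over all genes) and 12 were higher by more than 20 (12.6%, beside 8.48%). By gene, Foxf1 had only regions that ranked higher in GFP+, Foxs1 only regions that ranked lower, Foxo3 mostly lower ones, and Foxo1 and Foxp1 both kinds.

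**Figure D3:**
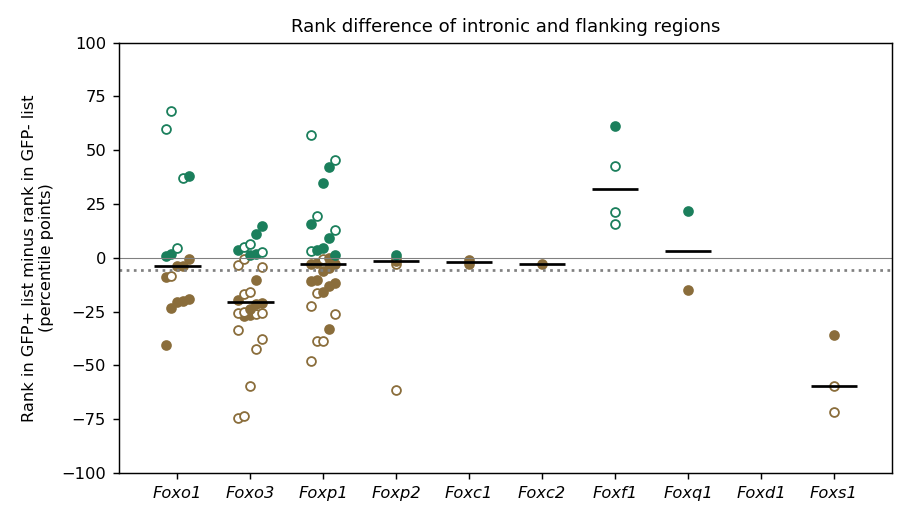
Rank in the GFP+ list minus rank in the GFP- list, in percentile points, of each intronic or flanking region, with open circles for regions found in a single list, black bars for the gene's median and a dotted line at the median of all genes (-5.57). The 4 Foxf1 regions lie above 0, the 3 Foxs1 regions below -20, and the Foxo3 median is -20.4.

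Foxo3 had the most unshared GFP- regions of the set by number. Of its 30 regions, 12 were found in both lists, 15 had no GFP+ peak and 3 had no GFP- peak. Among its 27 GFP- peaks, 55.6% overlapped no GFP+ peak, beside 34.5% over all genes. The median difference was -20.4 points (-14.1 when ranked by summit p-value and -7.72 by area per base). Beyond 20 points, 15 regions (50%) were lower in GFP+, beside 26.2% over all genes, and 0 were higher, beside 8.48%. The strongest GFP- regions without a GFP+ peak lay 170 kb from the TSS, beyond the 3′ end, at rank 74.6 (chr10:42106644-42108148, printed above), 106 kb from the TSS at rank 73.4, and 88.4 kb from it, in an intron, at rank 59.6. The 3 regions found only in GFP+ ranked 2.89 to 6.59.

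The Foxo3 regions with the highest GFP- ranks after the TSS, at 25.3 and 71.5 kb, were in both lists. The intronic region 25.3 kb after the TSS ranked 85.0 in GFP- and 74.5 in GFP+, and that at 69.0 kb ranked 70.7 and 74.3. The region at 71.5 kb ranked 82.1 and 55.4. Foxo3 carried 15 of the 28 unshared GFP- peaks of the set, and without it 75.5% of the remaining 53 GFP- peaks overlapped a GFP+ peak, against 65.0% with it.

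**Figure D4:**
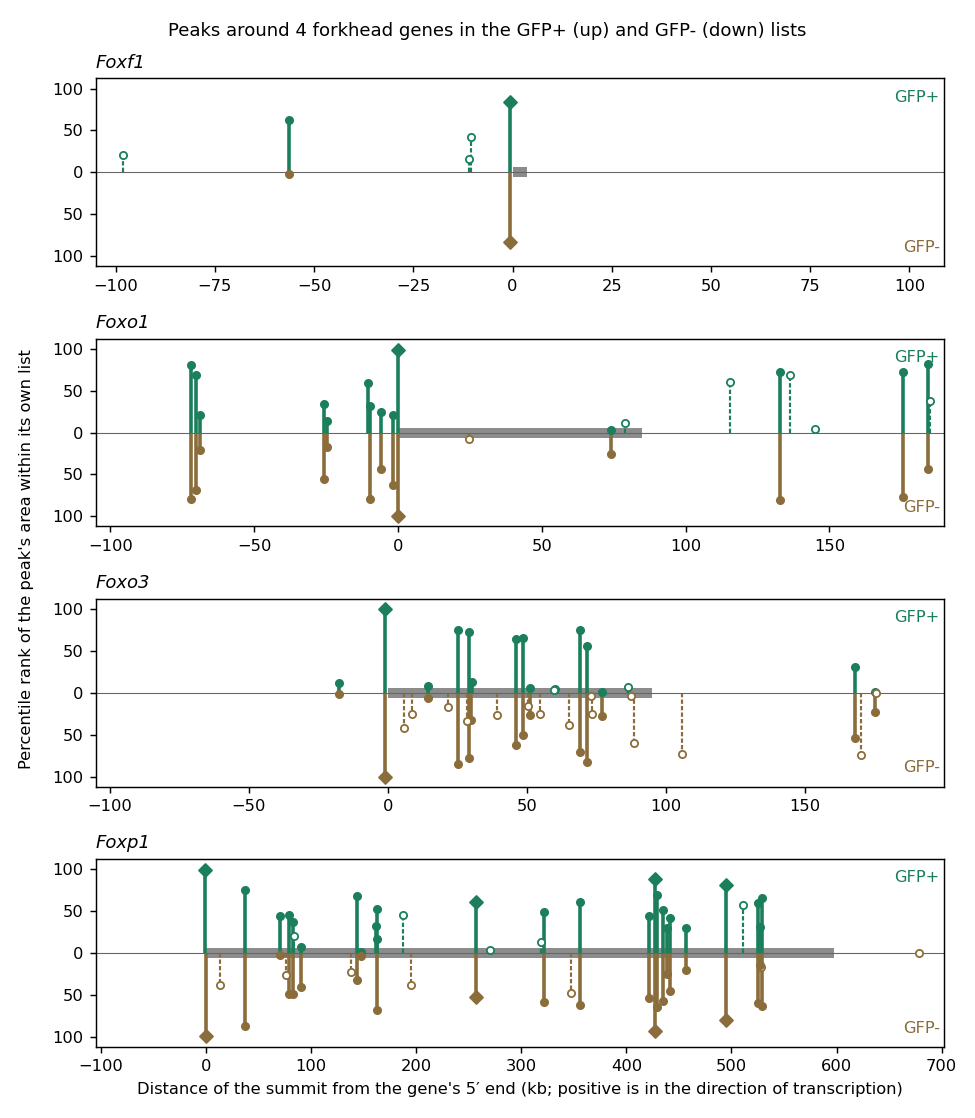
Peaks around Foxf1, Foxo1, Foxo3 and Foxp1 by distance of the summit from the gene's 5′ end (kb), with height as percentile rank in the GFP+ list (green, up) and the GFP- list (brown, down). Diamonds are TSS peaks, filled circles peaks that overlap a peak of the other list, open circles with dashed stems those that do not, and the grey bar is the gene. The Foxf1 upstream peaks stand almost only in GFP+, Foxo1 has unshared GFP+ peaks beyond its 3′ end, and Foxo3 has unshared GFP- peaks across its introns.

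Foxo1 divided by side. All 8 upstream regions were in both lists, and 6 of them ranked lower in GFP+, the most at 1.54 kb before the TSS, where the rank was 62.2 in GFP- and 21.5 in GFP+. The pair of strong upstream regions at 71.8 kb ranked 79.3 and 81.0, and at 70.2 kb 69.0 and 68.2. Beyond 20 points, 2 of the 8 upstream regions were lower, beside 26.2% of regions over all genes. Beyond the 3′ end, by contrast, 4 of 7 regions were found only in GFP+, and 5 of 7 ranked higher there. Over all genes, 41036 of 60845 regions ranked lower in GFP+, 19808 ranked higher and 6957 were found only in GFP+. Most regions of all genes thus ranked lower too, as most upstream Foxo1 regions did.

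The Foxo1 regions found only in GFP+ lay 115 kb (rank 60.0), 136 kb (rank 68.1, chr3:52404413-52405125, printed above), 145 kb (rank 4.45) and 185 kb (rank 37.3) from the TSS. A shared region at 184 kb ranked 81.3 in GFP+ and 43.4 in GFP-. The strongest GFP- region on this side, at 133 kb, ranked 80.9 and 71.8 in GFP+. The gene's median of -3.73 thus joined mostly lower ranks before the gene and in its introns with mostly higher ranks behind it. It was 4.24 when peaks were ranked by area per base. With flanks of 50 kb the far regions drop out and the median was -19.0 over 9 regions, and it was -19.4 over 6 when genes of every type competed for the peaks.

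Foxp1 had 31 regions, 30 of them in introns, with a median difference of -2.98 (interval -11.8 to 3.77). Peaks of both populations were found in 19 of the 31, while 7 lacked a GFP+ peak and 5 lacked a GFP- peak, and 6 were lower and 4 higher beyond 20 points. The strongest, 37.3 kb after the main TSS, ranked 86.8 in GFP- and 75.0 in GFP+. The strongest found only in GFP+ (rank 57.1, chr6:99011853-99012425) and only in GFP- (rank 47.9, chr6:99175305-99175751) are those printed above. Shared intronic regions at 69.9 kb (rank 2.42 in GFP- and 44.4 in GFP+) and 144 kb (32.4 and 67.3) had the largest gains in rank among those in both lists. The shares beyond 20 points, 19.4% lower and 12.9% higher, stand beside 26.2% and 8.48% over all genes, and 26.9% of the GFP- peaks of Foxp1 overlapped no GFP+ peak, beside 34.5%.

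Foxf1 had 4 regions, all upstream and all ranking higher in GFP+, with a median of 31.9 points. Beyond 20 points, 3 were higher, beside 8.48% over all genes. At 56.4 kb the rank was 62.8 in GFP+ and 1.55 in GFP- (chr8:121027791-121028214, printed above). The regions at 10.6 kb (rank 42.7), 11.0 kb (rank 15.8) and 98.2 kb (rank 21.2) were found only in GFP+. Those at 10.6 and 11.0 kb lie in the body of Fendrr. Foxf1 kept none of the 4 under either of a pair of other ways to assign peaks. With readthrough records kept, a record that spans the locus takes the flanks of Foxf1 and Foxc2, and when genes of every type compete, non-coding genes take the regions of Foxf1 and Foxc1.

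Foxs1 had 3 regions, all beyond its 3′ end, with a median of -59.4 (-25.9 by area per base). All 3 were lower in GFP+ beyond 20 points, beside 26.2% over all genes. The region 2.76 kb from the TSS ranked 82.0 in GFP- and 46.1 in GFP+, and those at 1.54 kb (rank 71.5) and 4.86 kb (rank 59.4) were found only in GFP-. With the promoter, 4 of 4 regions at Foxs1 ranked lower in GFP+. Foxp2 had 5 intronic regions, of which the only one above rank 11 in GFP- was that printed above (rank 61.6, chr6:15257315-15257758), with no GFP+ peak.

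The remaining genes had few regions. Foxc1 had upstream regions at 5.25 kb (74.2 in GFP- and 71.1 in GFP+) and 13.9 kb (49.6 and 48.4), and Foxc2 a region 2.74 kb upstream (82.2 and 79.3). Foxq1 had regions at 37.6 kb (48.1 and 33.1) and 27.0 kb upstream (7.65 and 29.2). No intronic or flanking peak was assigned to Foxd1 in either list. The Foxc1 and Foxc2 regions differed by less than 4 points between the lists.

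The rest of the family gives the setting. Of 34 other forkhead genes, 17 carried a TSS peak in GFP- (61.9% of all genes) and 16 in GFP+ (59.8% of all), 15 in both. The median difference over those with a peak was -1.39 points, beside -0.81 over all genes. Of those with a peak, 2 were lower and 1 higher by more than 20 points, beside 7.38% and 1.92% of all genes with a TSS peak. The lower ones were Foxf2 (79.0 in GFP- and none in GFP+) and Foxe3 (46.1 and none), and the higher one was Foxp3 (none and 84.1). Foxf2 is a relative of Foxf1 that lies 175 kb from Foxc1 and 64.8 kb from Foxq1. The Foxp3 value is a matter of the window, since a GFP- peak of rank 86.3 began 314 bp after the start. Foxl1, 9.05 kb from Foxc2, had no TSS peak in either list.

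All 16 upstream regulators of FOXO proteins examined had a TSS peak in both lists (61.9% of all genes in GFP- and 59.8% in GFP+). They include the insulin receptor Insr, the AKT kinases and the deacetylase Sirt1. Their ranks had a median of 98.5 in GFP- nuclei and 97.1 in GFP+ nuclei. None differed by more than 20 points, whereas 7.38% of all genes with a TSS peak were lower and 1.92% higher. The median difference was -0.21 points, beside -0.81 over 13518 genes. All 16 ranked 92.7 or above in both lists, which leaves little room for a higher rank. Differences were also small at Foxo3 (-0.01), Foxo1 (-0.33) and Foxp1 (-0.03), so they mark no likeness particular to FOXO genes.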

How the data were processed

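ATAC-Seq was done on GFP+ and GFP- heart nuclei, with 2 libraries each. After trimming (fastp), mapping to mm10 (bowtie2), quality filtering (samtools) and removal of duplicates (Picard), the authors reduced all libraries to a common read number, and Genrich called peaks on both libraries of a population jointly. The submitters' processing notes name Bowtie2 2.3.5.1, SAMtools 1.19 and CASAVA 1.4, with no role given. In the deposited lists, peak area is the caller's signal added up along the peak, the deposited -log10 p-value refers to the summit, and the deposited score is area per base after scaling, limited to 1000. Depth per library is not analysed here.

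Peaks were ranked as percentiles of area within a list (alternatives ranked by summit p-value or area per base). Genes and starts came from GENCODE M21. Readthrough transcripts, and 218 protein-coding records made only of them, were left out, against the planned analysis, because such a record swallowed Foxf1 and Foxc2; the planned version is an alternative. Shared peaks overlap by at least 1 bp. Calculations used Python 3.11.15, numpy 2.4.6, pandas 2.3.3 and scipy 1.17.1, with figures from matplotlib 3.10.9, and were tested on simulated data. The named peaks are the TSS peaks and, per gene and list, the strongest intronic or flanking peaks and the strongest unshared one; peaks outside this rule were named after their values were seen. The genes and lists were chosen with earlier results of these data known. With 1 list per population no test was made. Of the planned list of FOXO regulators, 1 gene is not reported here.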

Additional observations from a re-analysis of the deposited data

How the results depend on the processing

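No paired analysis was possible because the lists pool both libraries of a population. The cause of the changes below was not tested, except that a list reduced to its stronger peaks or a stricter overlap changes what can be shared. The share of GFP+ intronic and flanking peaks of the 10 genes that overlap a GFP- peak, 79.2%, became 66.7% with lists of equal length, 63.9% with an overlap of 50% of both peaks and 88.0% among peaks above the list's median area. The share of GFP- peaks that overlap a GFP+ peak, 65.0%, became 70.0% with lists of equal length and 57.5% with an overlap of 50% of both peaks. It was 80.6% among peaks above the median area and 75.5% without Foxo3, a setting chosen after seeing the data. No shares over all genes are given for these settings, so the changed values have no background. With lists of equal length the GFP- share was thus no longer the lower of the pair. TSS rank differences near 0 changed sign for Foxc1 (0.480) and Foxp1 (0.212) with lists of equal length, for Foxf1 (-9.94) when ranked by summit p-value and for Foxo1 (1.56) when ranked by area per base, and the median of the Foxo1 regions changed to 4.24 by area per base. The median TSS difference of the 9 genes, -0.55, was -9.94 by summit p-value and -7.76 by area per base. Keeping readthrough records gave shares of 64.1% and 82.1% and a median region difference of -4.52. Foxf1 kept no region under that setting or when genes of every type competed, and has no value there. Foxs1, Foxd1 and Foxp2 stayed lower in GFP+ under the other rankings. Single genes' values otherwise moved in 19 cases and kept within 5 points in 79. The 79 include settings that could not change a gene's value, such as leaving out Foxo3 for the other genes. They are therefore no measure of stability. A list of peaks above a minimum area of 200 gives no limit on accessibility below it.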

Other observations

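Peaks with their summit in an exon entered none of the counts of intronic and flanking peaks. In the single exon of Foxc1, a region 4.13 kb after the TSS ranked 38.0 in GFP- and 73.2 in GFP+, the reverse of the slight drop at the promoter. In Foxc2, 1.35 kb after the TSS, the exonic region ranked 21.6 and 9.57. In Foxo3 the exonic region 29.2 kb after the TSS ranked 77.6 in GFP- and 71.9 in GFP+, and in Foxo1 an exonic peak of rank 11.9 was found only in GFP+. At Foxq1 the single GFP+ peak over the RefSeq start spanned what the GFP- list held as separate peaks of rank 73.9 and 49.5, which is the opposite arrangement to Foxd1, where the GFP- list held the single peak.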
